A study of Homo sapiens with 4 samples.

Results

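Among OVCAR5 cells, an ovarian carcinoma line, a small set carried a strong antiviral program, and these cells are described here. They were chosen from the readout itself: a cell was counted as antiviral when OASL, RSAD2, IFIT1 and IFIT2 together reached at least 600 of every 1000000 gene UMIs (unique molecular identifiers, counts of captured mRNA molecules) and at least 5 UMIs. The 4 genes of the rule were left out of every test. Of 6170 kept cells, 239 met the rule, or 3.87% (exact 95% binomial interval 3.41% to 4.39%). Kept cells had at least 1000 detected genes, at most 20% mitochondrial UMIs and under 500 UMIs per 1000000 of KRT81, which left out 238 cells of a KRT81-high population. The matrix held 10660 barcodes in all, none of them listed more than once.

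The cells came from 1 pool of 24 cultures, each a condition of its own: OVCAR5 cells left without supernatant, or given the supernatant of a coculture of tumor cells with T cells, undiluted or diluted 5-, 25-, 125- or 625-fold, for 2, 6, 12 or 24 h. Each culture was marked with a pair of 10 hashtag antibodies. The labels do not say which tag pair is which dose and time, so no doses or times were compared, and a tag pair is used only as the culture in which antiviral and other cells lay side by side. The labels name no separate cultures of one condition, so the p-values measure the spread over these cultures alone.

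A cell can reach this program along different routes. Type I interferons (the alpha and beta genes) and type III interferons (the lambda genes) signal through JAK kinases to a complex that holds STAT2 and IRF9 and binds the interferon-stimulated response element (ISRE) in front of antiviral genes. RNA sensors such as RIG-I (gene DDX58) and MDA5 (gene IFIH1) act through MAVS, TBK1 and IRF3, and IRF3 can bind ISRE-like sites directly. Interferon gamma, a product of T cells, acts mainly at a different site, the GAS element. OASL and the IFIT proteins act in RNA sensing and in blocking translation of foreign RNA, and RSAD2 (viperin) makes a nucleotide that stops viral polymerases.

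The promoters below were chosen because they hold the ISRE core: they show it in a gene of the rule and in 4 genes that were higher or seen mostly in antiviral cells. Not all such genes hold it, and the promoter of IFNB1 had 0 matches to it, as had that of CXCL8, one of the genes that were lower. Each sequence is RefSeq's for GRCh38.p14, 5′ to 3′ on the strand of the gene, from 250 bases before its start to 50 after. Capitals mark every match to GAAANNGAA (the core of the ISRE) on either strand. Matches may overlap each other, and a match is a description of letters, not evidence of binding.
IFIT1 (chr10:89392373-89392672, plus strand): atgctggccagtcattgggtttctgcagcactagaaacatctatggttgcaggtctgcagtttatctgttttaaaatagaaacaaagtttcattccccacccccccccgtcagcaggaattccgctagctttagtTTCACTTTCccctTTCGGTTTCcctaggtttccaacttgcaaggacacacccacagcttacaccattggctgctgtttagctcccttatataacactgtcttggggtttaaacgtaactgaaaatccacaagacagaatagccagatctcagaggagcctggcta
IFNL1 (chr19:39296157-39296456, plus strand): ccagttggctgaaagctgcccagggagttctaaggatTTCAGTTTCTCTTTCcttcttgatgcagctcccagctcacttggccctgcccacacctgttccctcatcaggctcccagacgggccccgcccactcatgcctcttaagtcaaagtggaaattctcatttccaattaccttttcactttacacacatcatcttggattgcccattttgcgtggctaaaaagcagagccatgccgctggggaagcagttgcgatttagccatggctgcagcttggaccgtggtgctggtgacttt
HERC5 (chr4:88456869-88457168, plus strand): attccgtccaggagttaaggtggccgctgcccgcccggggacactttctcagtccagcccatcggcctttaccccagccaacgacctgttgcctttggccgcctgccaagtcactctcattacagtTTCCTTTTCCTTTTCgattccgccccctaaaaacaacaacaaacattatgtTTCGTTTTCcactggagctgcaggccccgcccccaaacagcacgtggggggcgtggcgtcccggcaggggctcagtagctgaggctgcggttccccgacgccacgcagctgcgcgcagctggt
IFIT3 (chr10:89327747-89328046, plus strand): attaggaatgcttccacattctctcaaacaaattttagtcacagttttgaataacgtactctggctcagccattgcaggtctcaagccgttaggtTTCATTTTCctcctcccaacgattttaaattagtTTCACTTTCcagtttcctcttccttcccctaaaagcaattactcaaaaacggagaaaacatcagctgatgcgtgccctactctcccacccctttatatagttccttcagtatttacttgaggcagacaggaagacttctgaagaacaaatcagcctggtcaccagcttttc
ISG15 (chr1:1013247-1013546, plus strand): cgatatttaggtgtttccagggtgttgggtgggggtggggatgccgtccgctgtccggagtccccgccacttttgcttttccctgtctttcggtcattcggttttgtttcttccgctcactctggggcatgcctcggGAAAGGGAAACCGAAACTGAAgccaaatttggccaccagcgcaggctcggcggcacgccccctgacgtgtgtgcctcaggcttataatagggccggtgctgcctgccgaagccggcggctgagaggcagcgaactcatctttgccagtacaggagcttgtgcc
In the IFNL1 promoter 2 overlapping matches began 213 and 207 bases before the start. HERC5 had 3, at 124, 118 and 73 bases, IFIT3 had 2, at 155 and 121 bases, and ISG15 had 3 in an overlapping run at 113, 107 and 101 bases. The rule gene IFIT1 had 2, at 115 and 102 bases.

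Antiviral and other cells were alike in depth. The median was 13397 gene UMIs and 3686 genes in antiviral cells and 13408 UMIs and 3748 genes in other cells, and the median mitochondrial share was 10.9% and 10.5%. Epithelial markers summed to 2757 UMIs per 1000000 gene UMIs (CPM) in antiviral and 3136 CPM in other cells, with 8 of 9 and 9 of 9 genes detected. Markers of T and NK cells summed to 0.579 and 0.502 CPM, of B cells to 0 and 0.304, of myeloid cells to 0.868 and 2.01, of plasmacytoid dendritic cells to 0.868 and 0.619 and of endothelial cells to 0.289 and 0.105, and CD3E, CD3G and PTPRC had no UMI in either class. The mesenchymal list rested on VIM alone in antiviral cells, at 2566 against 2289 CPM for the summed list.

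The 4 genes of the rule differed by construction and are given as a description. Over all kept cells OASL stood at 551 CPM in antiviral and 12.8 CPM in other cells, IFIT2 at 498 and 12.8 CPM, IFIT1 at 262 and 11.2 CPM and RSAD2 at 206 and 2.35 CPM. The summed rule genes ran from 606 to 5730 CPM in antiviral cells with a median of 1245 CPM, or 18 UMIs. Of the 5931 other cells, 4134 (69.7%) had no UMI of any of them. The border was not a gap: 20 antiviral cells lay between 600 and 700 CPM, 29 other cells with at least 5 UMIs lay between 500 and 600 CPM, and 6 other cells passed 600 CPM on fewer than 5 UMIs. ISG15 stood at 1887 CPM in the 20 cells just inside and 2098 CPM in the 29 just outside, IFIT3 at 852 and 780 CPM, and CCL5 at 118 and 410 CPM. The antiviral cells are thus a range above a threshold, with no gap at it.

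Antiviral cells were found in all 24 tag pairs. A tag pair was read for 5159 kept cells, and 210 of them were antiviral (4.07%), beside 29 of 1011 cells (2.87%) without a clear pair. The share per tag pair ran from 0.538% (1 of 186 cells, HTO3/HTO8) through a median of 3.35% to 14.3% (31 of 217 cells, HTO4/HTO9). Exact intervals cover counting error only. The 9 pairs that hold HTO10 gave 45 antiviral cells of 2089. Shares tended to be higher in cultures whose other cells had more of the summed antiviral effector genes. In HTO4/HTO9, with the highest share, the other cells had 7928 CPM of these genes. Not every culture followed this: HTO2/HTO9 had 17 antiviral cells of 235 (7.23%). Its other cells had 1866 CPM, the lowest but one of the 24. The relation was not tested.

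**Figure D1:**
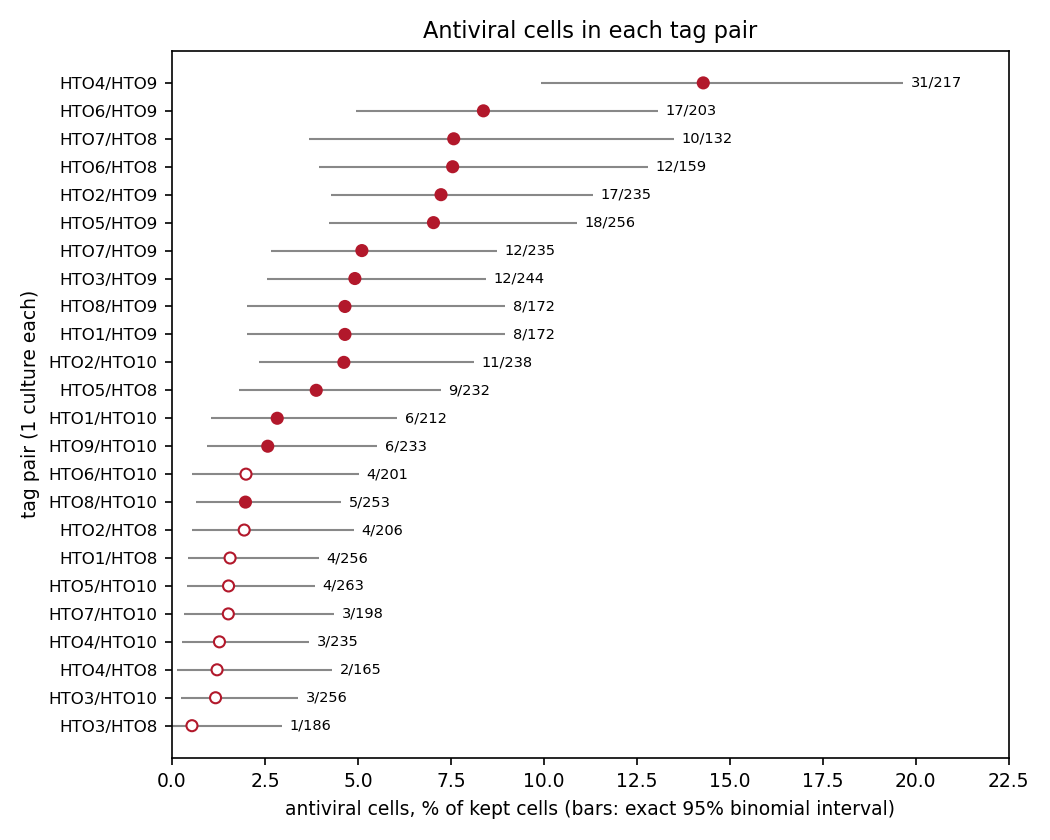
Share of kept cells that met the antiviral rule in each of 24 tag pairs (y axis), in percent (x axis), with exact 95% binomial intervals and counts; filled points are the 15 pairs with at least 5 antiviral cells. The share runs from 0.538% in HTO3/HTO8 to 14.3% in HTO4/HTO9, and each neighbour in this order overlaps the next in its interval.

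Interferon transcripts were rare, and those of IFNL1, IFNB1 and IFNL3 lay mostly in antiviral cells. IFNL1, a type III interferon, had 48 UMIs in 20 of 239 antiviral cells (8.37%, interval 5.19% to 12.6%) and 4 UMIs in 1 of 5931 other cells (0.0169%). That is 13.9 CPM (Poisson interval 10.2 to 18.4) against 0.0467 CPM (0.0127 to 0.12). The Poisson intervals cover counting error only. They take UMIs of the same cell as independent and leave out the spread between cells and cultures. Of the 20 cells, 10 had a single IFNL1 UMI, the top cell had 10 and the top 3 cells together 23. IFNB1, the type I interferon beta, had 6 UMIs in 3 antiviral cells and none in 5931 other cells, which allows up to 0.0506% of cells with a UMI and does not limit how many cells express the gene. IFNL3 had 3 UMIs in 1 antiviral cell and none in other cells, and IFNL2 had 1 UMI in each class. Only 2 other kept cells had a UMI of IFNB1, IFNL1, IFNL2 or IFNL3. Both lacked a clear tag pair, and their median was 25547.5 gene UMIs, against 13408 in all other cells. Whether these barcodes held more than 1 cell was not tested. Interferon gamma had no UMI in any kept cell, and IFNE, an epithelial interferon, had 21 UMIs in 21 other cells (0.354%) and none in antiviral cells. There 0 of 239 allows up to 1.26% of cells with a UMI, above the share in other cells, so no difference was detectable for IFNE at this depth. IFNA5 and IFNK had 1 UMI each, in other cells. In the KRT81-high cells that did not meet the rule (236 cells, median 18553 UMIs) IFNL1 had 0 UMIs.

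CCL5, a chemokine that attracts T cells, was the second marker. It had 1370 UMIs in 124 antiviral cells (51.9%, interval 45.4% to 58.4%) and 1907 UMIs in 489 other cells (8.24%, 7.56% to 8.97%). With every cell thinned to 3000 UMIs the shares were 35.4% and 3.69%. Its level was 397 CPM in antiviral cells, 22.3 CPM in other cells and 9.2 CPM in the 236 KRT81-high cells. All but 3 of the 20 antiviral cells with IFNL1 also had CCL5, as did all 3 with IFNB1, and 2 cells had IFNL1 and IFNB1 together. The 21 antiviral cells with a UMI of IFNB1, IFNL1, IFNL2 or IFNL3 had 999 CPM of CCL5 and 1971 CPM of IFIT3, and the other 218 antiviral cells 334 and 1219 CPM. All 20 cells with IFNL1 had over 1200 CPM of the rule genes. These subsets come from the same cells and are given without a test.

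Antiviral cells with CCL5 also had more CXCL10 and TNFSF10 when pooled over cultures, and in 6 of the 8 cultures where both kinds could be compared. The 124 cells with it had 2895 CPM of CXCL10 (a ligand of the T cell receptor CXCR3) and 301 CPM of TNFSF10 (the death ligand TRAIL), against 875 and 70.5 CPM in the 115 cells without it. IFIT3 stood at 1411 and 1169 CPM. These pooled values mix cultures, which differ in both genes. A comparison within cultures was added after the pooled values were seen. Within the 8 tag pairs that had at least 3 antiviral cells of each kind (71 with and 48 without CCL5), CXCL10 was higher in the cells with CCL5 in 6 pairs (medians 1703 and 525 CPM), TNFSF10 in 6 (282 and 118 CPM), ISG15 in 6 and IFIT3 in 7. In HTO6/HTO8 and HTO7/HTO8 both CXCL10 and TNFSF10 were higher in the cells without CCL5. The tag pairs were uneven in this: HTO4/HTO9 gave 472 CCL5 UMIs in 22 of its 31 antiviral cells, and HTO2/HTO9 gave 3 UMIs in 1 of 17. IFNL1 was seen in antiviral cells of 10 tag pairs, with the most in HTO2/HTO10 (15 UMIs in 5 of 11 cells) and HTO4/HTO9 (14 UMIs in 4 of 31 cells).

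**Figure D2:**
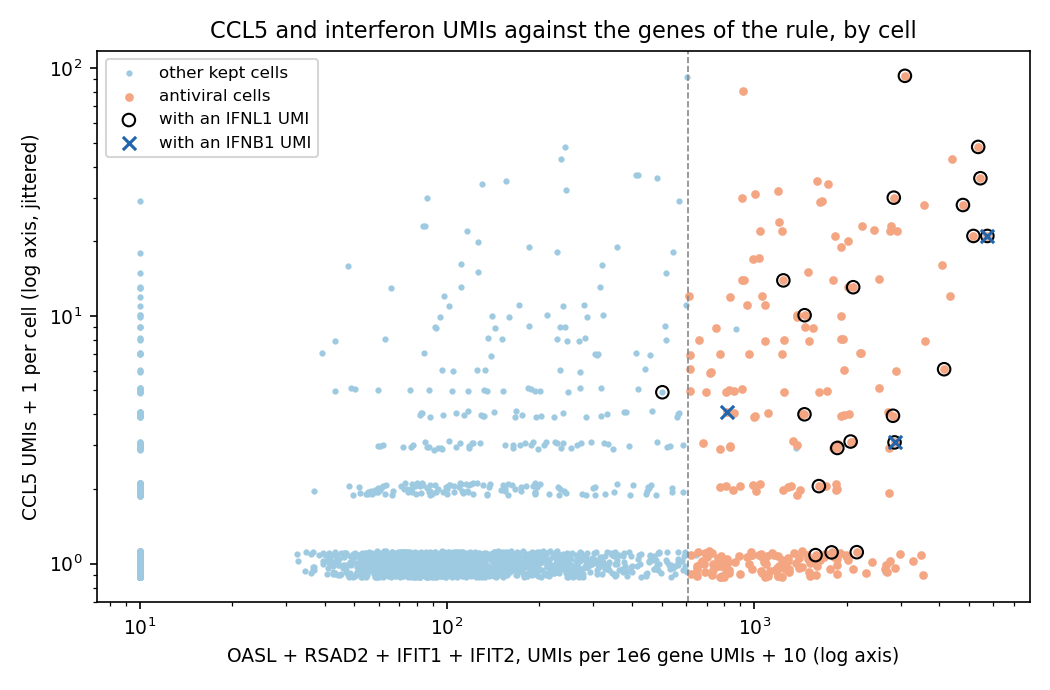
Each point is a kept cell, with the summed OASL, RSAD2, IFIT1 and IFIT2 on the x axis (CPM plus 10, log axis) and CCL5 UMIs plus 1 on the y axis (log axis, jittered); rings mark cells with IFNL1, crosses cells with IFNB1, and the dashed line the threshold of 600. Of 21 ringed cells 20 lie right of the line, all of them above 1200, and CCL5 is spread over both classes.

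For the comparison, counts were summed over the antiviral cells and over the other cells of each tag pair, and the pairs of sums were compared with edgeR with the tag pair as a block. This used the 15 tag pairs with at least 5 antiviral cells, with 182 antiviral and 3011 other cells; 28 antiviral cells in 9 pairs and 29 without a pair were not compared. Of 12167 genes tested, 535 passed an adjusted p of 0.05 (4.40%): 337 were higher in antiviral cells (2.77%) and 198 lower (1.63%), and 166 also differed at least 2-fold (1.36%), 141 of them higher. The split rests on scaling: 63.0% of the calls were higher here, 56.7% with library totals alone, 25.2% of 1047 calls with scaling factors from all genes and 12.4% of 1187 calls with DESeq2. The last 2 of these scalings moved the median of all genes by -0.11 and -0.14 (log2), and DESeq2 with size factors from the abundant genes called 275 genes higher and 103 lower. List medians close to 0 cross it with that shift: those of receptors and STATs, NF-kB, cell death and G2 and mitosis genes were -0.03, -0.04, -0.02 and -0.05 with DESeq2, and those of receptors and STATs and of class II genes both -0.02 with factors from all genes. Genes that vary together with the rule genes in single cells had to be higher in cells chosen on them, so the calls among antiviral genes are not independent support for the program. Without the tag pair as a block 157 genes were called, 49 of the 124 named genes losing their call. Some of the 124 had no call to lose. In that fit 10 antiviral effectors and 4 sensors and adaptors were called higher. No interferon gamma, class I, class II, NF-kB, S phase or G2 and mitosis gene was called. With a stricter cell filter, which left 26 antiviral cells in 4 pairs, 135 genes were called.

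Antiviral effectors, the genes whose products act on viruses, held the largest count of calls of any list, 24 higher and 2 lower of 48 tested. By share the immediate early genes had more, with 7 of 12. The effectors had a median log2 fold change of 0.47 beside -0.004 over all genes. HERC5, the ligase that attaches ISG15 to proteins, had 99.6, 187 and 268 CPM (lowest, median and highest of 15 tag pairs) in antiviral cells and 1.16, 3.82 and 12.1 CPM in other cells. The classes did not overlap, and the log2 fold change was 5.25 ± 0.14 (approximate SE), the largest of all genes named. IFIT3, a partner of IFIT1 and IFIT2, had 215, 1351 and 1613 CPM against 24.2, 211 and 335 CPM. It was higher in 15 of 15 pairs, with a log2 fold change of 2.84 ± 0.35 (adjusted p = 7.2e-05), but in HTO8/HTO10, the antiviral sum with the lowest level, by only 0.16 on the log2(CPM + 10) scale. ISG15, a ubiquitin-like protein, had 2107, 3068 and 4709 CPM against 171, 606 and 1400 CPM, without overlap, at 2.48 ± 0.24 (adjusted p = 5.9e-06).

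Other effectors differed by less, and 22 did not pass the test. HERC6 (2.59), CMPK2 (2.58, the mitochondrial nucleotide kinase next to RSAD2), SAMD9 (2.43, a restriction factor), IFI44 (2.26), ZC3HAV1 (2.22, the zinc-finger antiviral protein ZAP), DDX60 (2.14) and ISG20 (1.74, an exonuclease) were all at least 2-fold higher. IFI27 at 0.45 and IFITM3 at 0.27 were higher by far less, although IFI27 was higher in 15 of 15 pairs. IFITM2 (-0.27) and PNPT1 (-0.43) were lower. IFI44, ZC3HAV1, DDX60, IFITM2 and PNPT1 fall outside the rule for named genes and were added after their values were seen.

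Of 20 tested sensors and adaptors of nucleic acid sensing, 6 were higher and none lower (median 0.15; with DESeq2, 3 higher and 2 lower). DDX58 (RIG-I) had 44.5, 164 and 295 CPM in antiviral cells and 4.25, 37.8 and 71.0 CPM in other cells, higher in 15 of 15 pairs at 2.19 ± 0.11. IFIH1 (MDA5) had 94.1, 235 and 397 CPM against 4.58, 71.7 and 132 CPM, at 2.03 ± 0.28 (adjusted p = 0.00021). DHX58 (LGP2, their regulator) was higher at 2.26 ± 0.32. The DNA sensors AIM2 (2.71 ± 0.43, on 18 UMIs in antiviral cells) and IFI16 (0.33 ± 0.11) were higher too, as was the adaptor TMEM173 (STING, 1.10 ± 0.12). The other 14 did not pass the test, RNA sensors among them. Of these, MAVS had a log2 fold change of 0.06 ± 0.17, TBK1 0.08 ± 0.25, IRF3 0.04 ± 0.15, IRF7 0.18 ± 0.21, TLR3 -0.24 ± 0.71, CGAS -0.35 ± 0.18, ADAR -0.01 ± 0.09 and EIF2AK2 (PKR) 0.12 ± 0.09. The IFI16 call held in 2 of 16 alternatives.

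**Figure D3:**
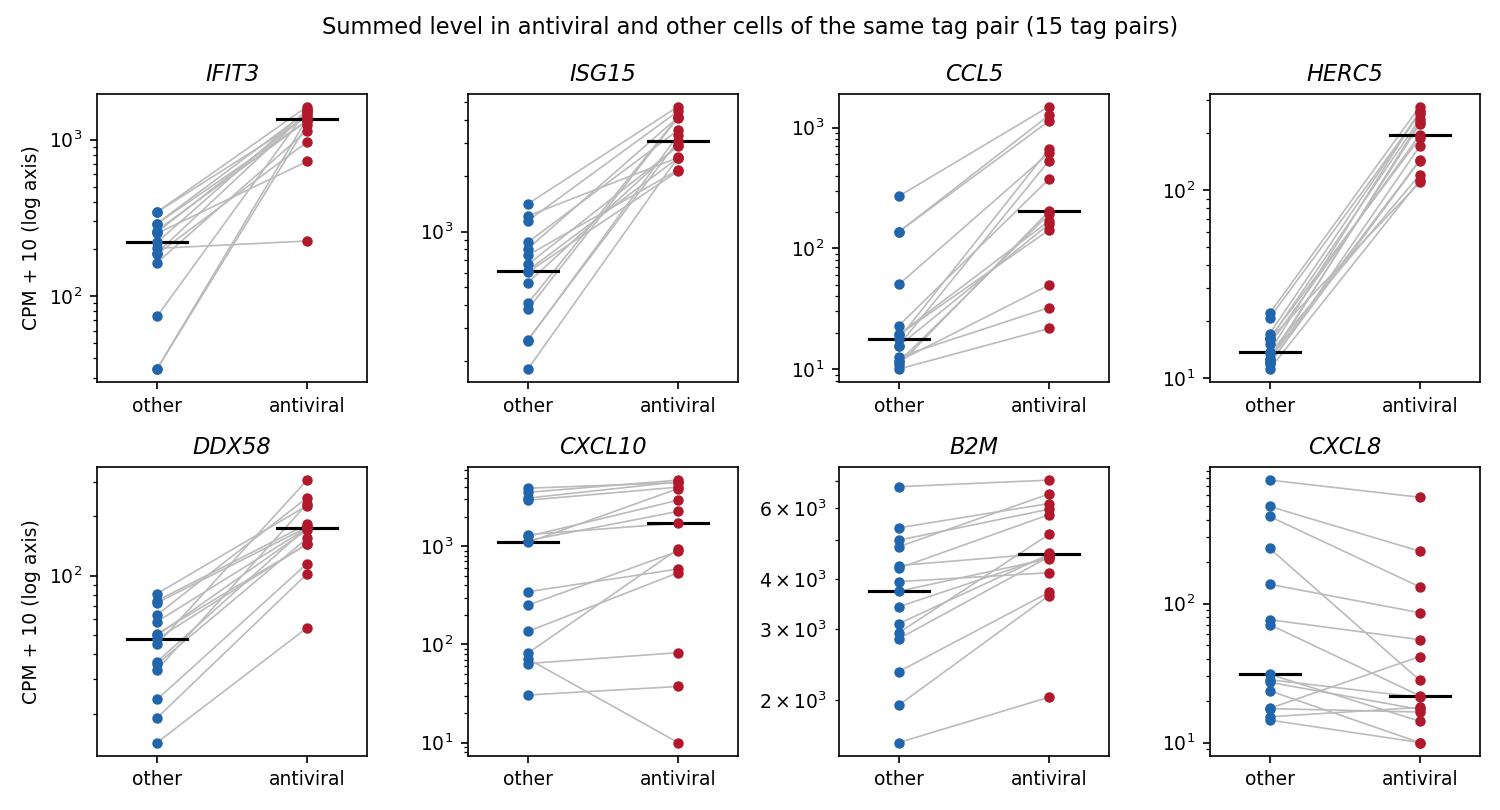
Level of 8 genes in the summed other cells and summed antiviral cells of 15 tag pairs (CPM + 10, log axes; each grey line joins the classes of 1 tag pair, black bars are medians). IFIT3, ISG15, CCL5, HERC5 and DDX58 are higher in antiviral cells in 15 of 15 pairs, CXCL10 in 14, B2M in 15 and CXCL8 in 2.

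The genes that carry the interferon signal itself were nearly level. Of 21 tested receptors, JAKs, STATs, IRFs and feedback genes, 2 were higher and none lower (median 0.09, -0.03 with DESeq2): JAK2 at 1.59 ± 0.20 and STAT2, a part of the ISRE-binding complex, at 0.85 ± 0.21 (adjusted p = 0.0017). IRF1 stood at 0.23 ± 0.11 (adjusted p = 0.33), JAK1 at 0.20 ± 0.12 and IFNLR1, the receptor chain of the lambda interferons, at -1.34 ± 0.96 on 1 UMI in antiviral cells.

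Genes best known as targets of interferon gamma were higher by moderate amounts. Of 24 tested, 10 were higher and none lower (median 0.45). CXCL10 had 0, 1710 and 4713 CPM in antiviral cells and 20.5, 1086 and 3893 CPM in other cells, with wide overlap between cultures, higher in 14 of 15 pairs at 1.04 ± 0.25 (adjusted p = 0.028). CXCL9 (1.38 ± 0.33), CXCL11 (1.26 ± 0.29), GBP5 (1.16 ± 0.11, a guanylate-binding protein), WARS (1.06 ± 0.12, the tryptophan tRNA ligase) and IDO1 (0.87 ± 0.18, which breaks down tryptophan) were higher as well. Against only those other cells of the same pair with an interferon gamma list level at or above the median (1438 cells), 3 of 24 were higher, 2 lower and the median was 0.16. Effectors in that comparison gave 20 higher and 1 lower of 48 (median 0.26), CXCL10 stood at 0.34 and HERC5 at 4.71. That subset is chosen on the same genes, so the smaller differences of the interferon gamma list there follow in part from the choice.

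Antigen presentation genes differed little. Of 17 class I pathway genes, 6 were higher and none lower (median 0.19). With DESeq2, and against other cells of high interferon gamma level, 3 of them were higher, with a median of 0.03 in both. B2M, which pairs with every class I heavy chain, had 2021, 4592 and 7028 CPM in antiviral cells and 1557, 3716 and 6767 CPM in other cells; it was higher in 15 of 15 pairs, by 0.43 ± 0.04. HLA-B (0.42 ± 0.05), HLA-C (0.33) and the immunoproteasome subunits PSMB9 (0.34) and PSMB8 (0.24) were higher too; HLA-C, PSMB9 and PSMB8 were named after their values were seen. Of 11 class II pathway genes, CTSS (0.57 ± 0.12) and HLA-DRA (0.46 ± 0.12) were higher, and CD74, the invariant chain, stood at 0.20 ± 0.06 (adjusted p = 0.099). The class II median was 0.08, -0.02 with scaling factors from all genes and -0.24 against other cells of high interferon gamma level, where 0 of 10 class II genes were called (adjusted p = 0.93 for HLA-DRA and 0.54 for CTSS, both in edgeR).

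NF-kB genes, which respond to TNF and to RNA sensing, were split. Of 23 tested, 6 were higher: TRAF1 (1.14 ± 0.29), NFKBIZ (1.08 ± 0.14), TNIP1 (0.89 ± 0.11), NFKBIA (0.76 ± 0.08), TNFAIP3 (0.73) and SOD2 (0.42 ± 0.06). BIRC3 (-0.31) and TNFAIP2 (-0.40) were lower, and the median was 0.14 (-0.04 with DESeq2). TNFAIP3, BIRC3 and TNFAIP2 were named after their values were seen. NFKBIA, the inhibitor that NF-kB induces against itself, was higher in 15 of 15 pairs, and ICAM1, an adhesion molecule and a usual NF-kB target, stood at 0.14 ± 0.06 (adjusted p = 0.20).

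Most members of the cytokine and chemokine list that passed the test were lower in antiviral cells. The list leaves out CCL5, CXCL9, CXCL10, CXCL11 and TNFSF10, all of them higher, so it does not stand for all such genes. Of 27 tested, 9 were lower and 2 higher, with a median of -0.39; without HTO3/HTO9 it was -0.17 with 5 lower, and with DESeq2, under both of its scalings, the median was above 0 (0.13 and 0.29) while 7 were lower under the first. CXCL8, which attracts neutrophils, had 0, 11.7 and 573 CPM in antiviral cells and 4.52, 21.0 and 764 CPM in other cells. Cultures differed far more than the classes within one, and CXCL8 was lower in 13 of 15 pairs at -0.97 ± 0.13. The other neutrophil chemokines CXCL1 (-1.12 ± 0.28, adjusted p = 0.034) and CXCL3 (-1.06 ± 0.26, adjusted p = 0.031) were lower in 12 of 15 pairs each, and LTB (-1.10 ± 0.32), CXCL2 (-0.94), CCL2 (-0.88), CSF2 (-0.88) and IL1B (-0.82) were lower too. CCL7, one of the 9 lower genes, had 0 UMIs in antiviral cells and 80 UMIs (1.99 CPM) in other cells. Only the other cells thus carried it past the minimum count for testing. Set against 3 counts over all antiviral cells it was 1.65-fold lower, a bound that covers counting error only. Its call was weak: adjusted p = 0.047 in edgeR, and a call in 3 of 9 alternatives. With DESeq2 its log2 fold change was -0.18. Unlike the lower genes, IL6 was higher, with 0, 18.0 and 87.9 CPM against 0, 1.70 and 14.3 CPM. IL6 stood at 3.48 ± 0.28, higher in 11 of 15 pairs on 77 UMIs. CSF3 was higher by 0.71. CXCL2, CCL2, CSF2, IL1B and CSF3 were named after their values were seen. CCL5 belongs to no tested list here; by tag pair it had 11.7, 192 and 1479 CPM against 0, 7.78 and 260 CPM, higher in 15 of 15 pairs at 4.05 ± 0.38.

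**Figure D4:**
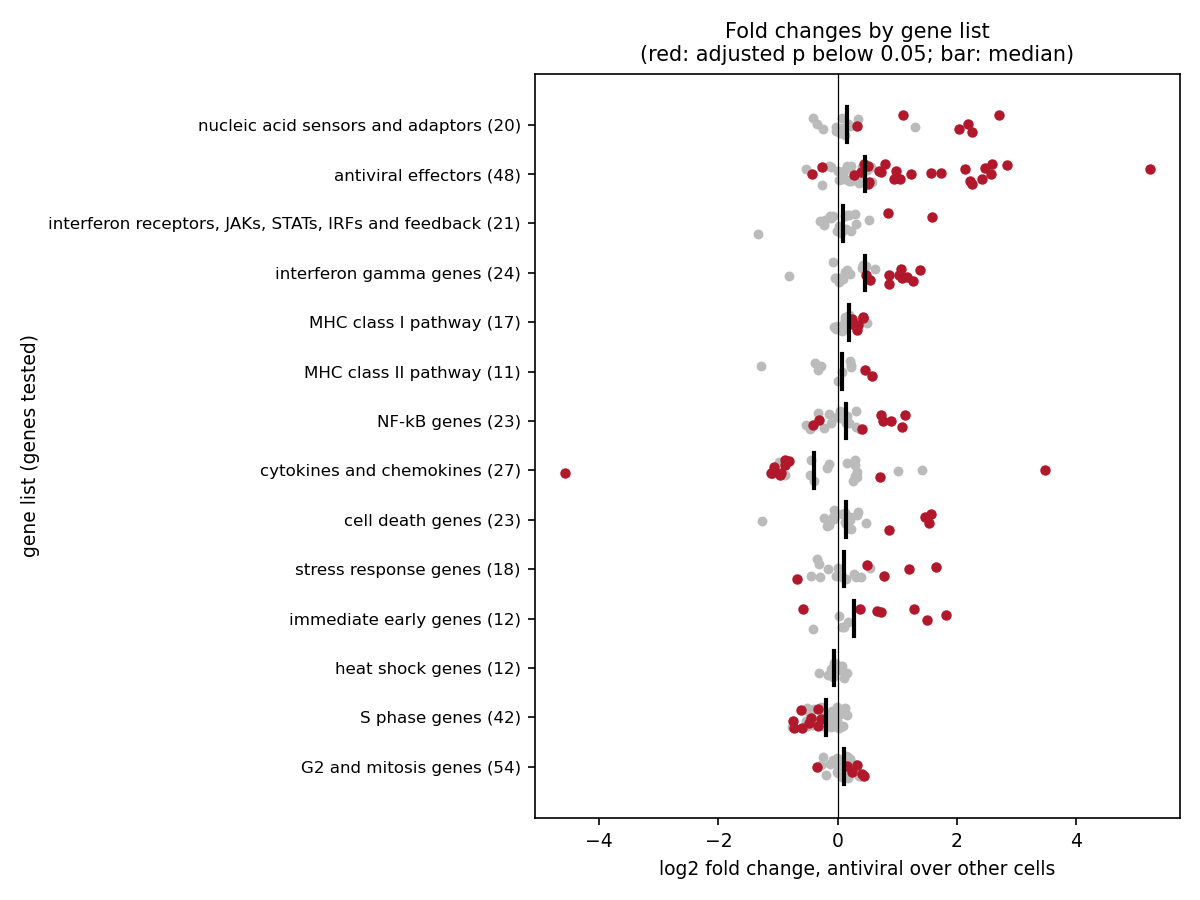
Log2 fold change (x axis) of every tested member of 14 gene lists (y axis, with the number tested); red points passed an adjusted p of 0.05 in edgeR and black bars are list medians. The median is largest for antiviral effectors (0.47) and interferon gamma genes (0.45) and lowest for cytokines and chemokines (-0.39, above 0 with DESeq2). That last list leaves out CCL5, CXCL9, CXCL10 and CXCL11, which were higher. The leftmost point is CCL7, with 0 UMIs in antiviral cells, whose fitted value depends on the prior count.

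Of 23 tested cell death genes, 4 were higher and none lower (median 0.14, and -0.02 with DESeq2). PMAIP1 (NOXA), a BH3-only protein that promotes apoptosis, had 304, 434 and 867 CPM in antiviral cells and 90.1, 166 and 290 CPM in other cells. The classes did not overlap, and it was higher at 1.54 ± 0.14 (adjusted p = 8.0e-07). TNFSF10 (TRAIL) was higher in 14 of 15 pairs at 1.57 ± 0.27, and lower in HTO2/HTO9. BBC3 (PUMA, another BH3-only protein) was higher at 1.47 ± 0.23, and FAS, a death receptor named after its value was seen, at 0.86. BAX, the pore former, stood at -0.17 ± 0.10 and BCL2L1, which opposes it, at -0.10 ± 0.10.

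Stress and immediate early genes held a few large differences. ATF3 (1.65 ± 0.28), CDKN1A (1.19 ± 0.16, the inhibitor p21), XBP1 (0.79 ± 0.15) and PPP1R15A (0.50 ± 0.13) were higher and GADD45A was lower (-0.67 ± 0.12), of 18 stress genes with a median of 0.11. ATF4 stood at -0.16 ± 0.12 (adjusted p = 0.63). Of 12 immediate early genes 6 were higher and 1 lower (median 0.27). KLF4, a transcription factor, had 80.3, 106 and 175 CPM in antiviral cells and 25.0, 38.0 and 67.3 CPM in other cells, without overlap, at 1.5 ± 0.12. FOS (1.83 ± 0.42) and EGR1 (1.28 ± 0.37) rested on 18 and 25 UMIs in antiviral cells, and JUN stood at 0.38 ± 0.08. IER3 was lower in 15 of 15 pairs, at -0.59 ± 0.09. None of 12 heat shock genes was called in edgeR (3 had an unadjusted p below 0.05; median -0.05), where HSP90AA1 stood at -0.05 ± 0.03 and HSPD1 at -0.07 ± 0.04; DESeq2 called 6 of them lower.

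Genes of DNA replication tended to be lower and genes of mitosis were near level. Of 42 S phase genes, 9 were lower and none higher, with a median of -0.19. Without HTO4/HTO9, 4 were lower, with a median of -0.11, and against other cells of high interferon gamma level 1 was. No S phase gene was called with cells thinned to 3000 UMIs or with the threshold at 1200. The same held under the stricter cell filter and without the tag pair block, while DESeq2 called 17 lower. PRIM1, a primase subunit, stood at -0.74 ± 0.23, UHRF1, which maintains DNA methylation, at -0.73 ± 0.19, MCM4, part of the replicative helicase, at -0.33 ± 0.09 and TYMS, thymidylate synthase, at -0.28 ± 0.08. RRM2 (0.04 ± 0.09) and NASP (-0.09 ± 0.07) did not pass the test. Of 54 G2 and mitosis genes, 5 were higher and 1 lower, and 46 had a log2 fold change above 0 (median 0.12, -0.05 with DESeq2). Among the higher were DLGAP5 (0.45 ± 0.09) and BUB1 (0.41 ± 0.11), both of the mitotic spindle, while TOP2A stood at 0.07 ± 0.10. These calls depended on the setting: 2 were higher without HTO4/HTO9 and 2 with the threshold at 1200. DESeq2 called 0 higher and 4 lower, and the stricter cell filter 0 higher and 3 lower. None was called with cells thinned to 3000 UMIs or without the tag pair block.

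Several of the largest differences lay outside these lists. FZD4, a WNT receptor (3.08 ± 0.29), ZNF704 (2.91 ± 0.29), HIP1R (2.82 ± 0.19), BAMBI, a decoy receptor of the TGF-beta family (2.73 ± 0.27), and CITED2, a transcriptional coregulator (2.64 ± 0.18), were among the 12 highest of the called genes with at least 20 CPM in either class. CITED2 had 31.2, 58.6 and 138 CPM in antiviral cells and 5.71, 9.67 and 21.5 CPM in other cells, without overlap. IGFBP6, an IGF-binding protein, was also higher without overlap: 77.8, 269 and 763 CPM against 35.5, 59.0 and 68.7 CPM, at 2.50 ± 0.27 (adjusted p = 1.9e-05). FZD4, ZNF704 and BAMBI rested on 61, 54 and 67 UMIs in antiviral cells. Beside the chemokines and LTB, the 12 lowest included NT5DC2 (-1.51 ± 0.18), CLDN1, a tight junction protein (-1.45 ± 0.18), CALB2 (-1.21 ± 0.23), CYP1B1 (-1.13 ± 0.21), IRS1 (-1.12 ± 0.22), HDHD5 (-1.04 ± 0.27) and COL13A1 (-1.0 ± 0.27). CLDN1 was lower in 15 of 15 pairs, with 0, 15.6 and 61.4 CPM against 43.1, 57.6 and 118 CPM.

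The summed lists show how the difference varied over cultures. Summed antiviral effectors stood at 7830 to 14902 CPM (median 10863) in antiviral cells and 1866 to 8590 CPM (median 5110) in other cells, higher in 15 of 15 pairs by 1.61- to 4.20-fold. The fold was largest where other cells had little: 7830 against 1866 CPM in HTO2/HTO9, and 14867 against 8590 CPM in HTO3/HTO9. Antiviral cells were chosen by 1 fixed level of genes that vary with members of this list, such as IFIT3, HERC5 and ISG15, which holds up their lowest values, so the larger fold in such cultures is a description. Interferon gamma genes varied with the culture in both classes, from 922 to 19937 CPM in antiviral and from 417 to 16048 CPM in other cells, and the fold ran from 1.24 to 3.76. They too were higher in 15 of 15 pairs (median 1.68-fold). So were sensors and adaptors (1.44-fold), cell death genes (1.35-fold) and class I genes (1.24-fold). NF-kB genes were higher in 13 of 15 pairs (median 1.18-fold) and class II genes in 12 (1.11-fold). Cytokines and chemokines were higher in 6 (0.85-fold), heat shock genes in 4 (0.92-fold) and S phase genes in 2 (0.83-fold).

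**Figure D5:**
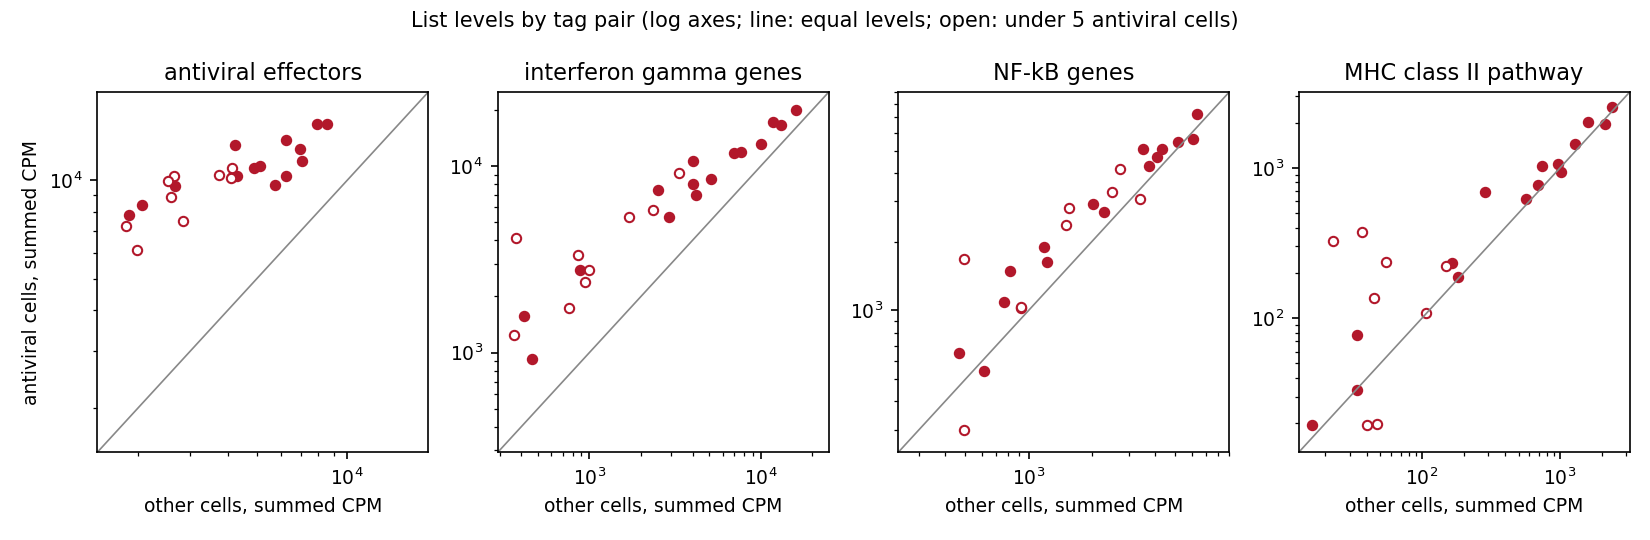
Summed CPM of 4 gene lists in antiviral cells (y axis) and other cells (x axis) of each tag pair, on log axes; open points are pairs with under 5 antiviral cells, the line marks equal levels, and 1 pair with a class II level of 0 in its antiviral cells is not drawn. Antiviral effectors and interferon gamma genes lie above the line in every pair. NF-kB and class II genes lie on both sides of it, with the widest scatter for class II genes at low levels.

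From cell to cell, the genes most like the summed rule genes were IFIT3 (r = 0.477), HERC5 (0.469), ISG15 (0.461), CCL5 (0.364), ISG20 (0.334), IGFBP6 (0.289), WARS (0.276), IFIH1 (0.266), SAMD9 (0.260) and CXCL11 (0.254), by Pearson correlation of log counts over 5123 cells thinned to 3000 UMIs. These cells share 1 pool and their cultures, and the values are a description over 10237 genes. The ISRE core shown above was found in the promoters of 44 of 264 genes called higher (16.7%), 6 of 145 called lower (4.14%) and 596 of 9306 tested genes with a promoter entry (6.40%), beside 8.29% of all 27305 promoters of this length. Of the 12 highest genes 9 had an entry, and 4 of these (44.4%) held it. The NF-kB core GGGANNTTC was in 10.2%, 6.21% and 4.04% of the same 3 sets and in 4.21% of all promoters, and the GAS core TTCNNNGAA in 7.58%, 8.28% and 6.36% and in 7.88% of all. Both strands were searched, and the patterns may overlap one another. The called genes come from cells chosen on the rule genes, and the 2 rule genes with a promoter entry both held the ISRE core. The ISRE shares among genes called higher are thus not independent support and are given as a description.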

How the data were processed

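Gene and hashtag UMI counts of 1 pool of OVCAR5 cells were used as the authors deposited them, as raw counts per cell barcode; per the file headers, the matrix came from Cell Ranger 5.0.1. Cell Ranger 2.1.1 and GRCh38 appear in the submitters' processing notes, and the sources used here give no other settings. All 4 libraries (2 gene expression, 2 hashing) belong to the same pool, and 0 columns were left unused for want of a sample.

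A cell's tag pair was its 2 strongest hashtags where the second had at least 3 times the UMIs of the next; pairs of 100 or more barcodes were in use. No doublet caller was run, since every cell carries 2 tags: barcodes with 3 strong tags fell out of the comparison. Of the kept antiviral and other cells, 5.02% and 5.01% were among the 5% with the most UMIs.

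Counts were summed per tag pair and class (74425 to 377460 UMIs in antiviral sums, 1632983 to 3491999 in other sums) and tested with edgeR 4.0.16 (quasi-likelihood, robust, tag pair as a block, genes with at least 50 UMIs, Benjamini-Hochberg over all genes). The 4 genes of the rule and the hashtags were left out. TMM factors used genes whose mean reached 200 CPM, a choice made after a test on simulated data showed that factors from all genes shift such uneven sums; the original setting is an alternative. DESeq2 1.42.0 was another alternative. Values after ± are approximate SEs: the size of the log2 fold change over the square root of the edgeR F value. Values by tag pair are CPM, and a pseudocount of 10 was added only for ratios. Intervals are exact (Clopper-Pearson or Poisson) at 95%.

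Named genes were the rule genes, interferons with a UMI, CCL5, every tested sensor or adaptor, the 12 highest and 12 lowest called genes with at least 20 CPM, the 4 most abundant and 3 most changed members of each other list, and the 10 genes most like the rule genes. Some genes that this rule names are not reported here. The members, the 15 gene lists (387 genes) and the tests were chosen with earlier results of these data known. RefSeq promoters (GRCh38.p14) were matched by symbol for 9306 of 12167 tested genes.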

Additional observations from a re-analysis of the deposited data

Results flagged for a closer look

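Barcodes with over 20% mitochondrial UMIs took no part in the comparisons, yet 23 of 1173 of them (1.96%) met the antiviral rule. Their median was 7595 UMIs, against 4527 in the other 1150, and they came from 10 tag pairs. They held 37 IFNL1 and 13 IFNB1 UMIs, against 1 and 0 in the other 1150 and 48 and 6 in the 239 kept antiviral cells. IFNL1 stood at 185.5 CPM in the 23 barcodes and 13.9 CPM in the kept antiviral cells, while CCL5 stood at 496 and 397 CPM, IFIT3 at 1058 and 1290 CPM and ISG15 at 2577 and 3075 CPM. All 37 IFNL1 UMIs lay in 1 of the 23 barcodes, and all 13 IFNB1 UMIs in 1, so both levels rest on a single barcode each, while the 48 IFNL1 UMIs of the kept antiviral cells lay in 20 cells. Under the stricter cell filter (a minimum of 2000 genes, no more than 10% mitochondrial), 8 of 88 antiviral cells had IFNL1 (9.09%), against 8.37% of the 239.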

How the results depend on the processing

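The results were compared over 16 alternatives. Of these, 2 were chosen after seeing the data (scaling factors from all genes, and DESeq2 with size factors from abundant genes). Of 1888 gene values, 1627 kept their side of the threshold. The called values among them also kept their direction, while values called in neither fit could change sign. Another 216 lost the call, 39 gained one and 6 reversed with a call in either fit. The 535 genes called became 1187 with DESeq2, 1047 with TMM factors from all genes, 280 with a rule threshold of 1200, 135 under a stricter cell filter (2000 genes, 10% mitochondrial UMIs), 144 with cells thinned to 3000 UMIs and 157 without the tag pair block. That filter left 4 tag pairs. Under it the median log2 fold change was 0.36 for sensors, 0.72 for effectors, 0.35 for receptors, JAKs and STATs, 0.42 for class II genes, 0.66 for NF-kB genes, -0.22 for heat shock genes and -0.37 for G2 and mitosis genes, reversed from 0.12; CLDN1 (0.0058), MCM4 (0.021), UHRF1 (0.32), TUBB4B (-0.44) and TOP2A (-0.71) reversed there too. With DESeq2 the medians were 0.13 for cytokines, -0.021 for cell death genes and -0.22 for heat shock genes, and TUBB4B stood at -0.0031; DESeq2 with size factors from abundant genes gave 0.29 for cytokines. Against other cells of high interferon gamma level the medians were 0.16 for interferon gamma genes and -0.24 for class II genes. With the threshold at 1200 they were -0.65 for cytokines, 0.45 for stress genes and 0.53 for immediate early genes, and without HTO3/HTO9 -0.17 for cytokines. The cause was not tested for these medians. By construction, the share of antiviral cells was 2.09% with the threshold at 1200 and 3.19% with a minimum of 10 UMIs, and thinning to 3000 UMIs left IFNL1 in 3.80% of antiviral and 0% of other cells and CCL5 in 35.4% and 3.69%; CCL5 was in 5.43% of other cells under the stricter cell filter.

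The tag pairs pair the sums by design, since both classes of a pair come from 1 culture, and no replicate numbers exist. Depth limits the rare transcripts: in the median cell 1 UMI is 74.6 CPM, so cells without a UMI of IFNL1 or IFNB1 cannot be called negative, and genes under 50 UMIs over all sums were not tested. The 4 genes of the rule share the cells of every test, and the labels give no dose or time for a tag pair.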
